A study of Mus musculus with 24 samples.

Results

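The 9 genes described here are the ligands and receptors of the EGF receptor pathway and were chosen by name, as members of the pathway. They are, of 55421 mouse genes counted, the 6 ligands Areg, Ereg, Hbegf, Tgfa, Btc, and Epgn and the 3 receptors Egfr, Erbb2, and Erbb3. All 9 had enough reads to be tested, as did 18046 genes in all. RNA was measured by RNA-Seq in alveolar epithelial cells (AECs) of wild-type mice, written Krt8+/+, and of mice that lack keratin 8 in every cell, written Krt8–/–. Type 2 cells (AEC2s) were isolated and sampled at day 0, when fresh, and on days 1, 3, and 7 of 2D culture, in which they lose their AEC2 genes. Each of the 8 groups of genotype and day held 3 libraries, which the labels number as biological replicates 1 to 3 and give a batch each, shared by both genotypes and all days. The sources used here do not give the strain, the age, or the number of mice behind a replicate.

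Libraries held between 10184439 and 19483386 counts. Krt8 averaged between 523 and 4030 CPM (read counts scaled to the library size, with edgeR's TMM factors) in the Krt8+/+ groups and between 29.6 and 38.2 CPM in the Krt8–/– groups. The 6 AEC2 markers together held at least 221803 CPM in each day 0 library and at most 169 CPM at day 7. The sum over 6 airway markers at day 0, most of it the club cell gene Scgb1a1, lay between 4490 and 10086 CPM for Krt8+/+ AECs, below all Krt8–/– libraries with their 12201 to 17351 CPM. Genes of the Y chromosome and Xist placed the 2 genotypes in different sexes in replicate 1 and in the same sex in replicates 2 and 3. The day 1 libraries of replicate 2 stood apart in both genotypes, with Sftpc, the surfactant protein gene that marks AEC2s, at 1.43% and 1.37% of counts against 4.99% to 6.59% in the other day 1 libraries.

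EGF family ligands are made as membrane-anchored precursors that proteases of the ADAM family cut loose, and most act on the cell that made them or on its neighbors. Amphiregulin (Areg), TGF-α (Tgfa), and epigen (Epgn) bind the EGF receptor (Egfr), and epiregulin (Ereg), betacellulin (Btc), and heparin-binding EGF-like growth factor (Hbegf) bind ErbB4 as well. ErbB2 has no ligand of its own and serves as a partner, ErbB3 binds neuregulins and has little kinase activity, and the active pairs signal through RAS-ERK and PI3K-AKT. In the lung the pathway is known for its part in epithelial growth, spreading, and repair after injury.

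On chromosome 5 of GRCm38, 4 ligand genes are neighbors, in the order Epgn, Ereg, Areg, Btc. The gaps between them are 39.4, 46.0, and 209 kb. They span 376 kb and are the 4 protein-coding genes of the GENCODE M21 annotation in that span. Areg (ENSMUSG00000029378) runs from 91139599 to 91148432 and Btc (ENSMUSG00000082361) from 91357261 to 91402994, on opposite strands. Ereg (ENSMUSG00000029377) runs from 91074622 to 91093646 and Epgn (ENSMUSG00000035020) from 91027464 to 91035215. Tgfa (ENSMUSG00000029999) lies on chromosome 6 from 86195223 to 86275719. Hbegf has the identifier ENSMUSG00000024486. Egfr (ENSMUSG00000020122) and Erbb2 (ENSMUSG00000062312) lie on chromosome 11, from 16752203 to 16918158 and from 98412470 to 98437716, and Erbb3 (ENSMUSG00000018166) on chromosome 10 from 128567523 to 128589652.

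Of the 9 genes, 6 have an entry among RefSeq's promoter sequences for GRCm38.p6, and Ereg, Hbegf, and Erbb3 have none there. The 250 bases upstream of the start site are shown for Areg (chr5:91139349-91139598, plus strand) and Btc (chr5:91402995-91403244, minus strand), the pair of clustered ligands whose levels were most alike over the culture. Capitals mark matches, on either strand, to 6 motifs. The CRE was searched as TGACGTCA and the site of the factor AP-1 as TGANTCA. The letters TATAAA stood for the TATA box. The GC box was read as GGGCGG, and sites of the TEAD factors were read as GGAATG. The CCAAT box was searched as its name is spelled.
Areg: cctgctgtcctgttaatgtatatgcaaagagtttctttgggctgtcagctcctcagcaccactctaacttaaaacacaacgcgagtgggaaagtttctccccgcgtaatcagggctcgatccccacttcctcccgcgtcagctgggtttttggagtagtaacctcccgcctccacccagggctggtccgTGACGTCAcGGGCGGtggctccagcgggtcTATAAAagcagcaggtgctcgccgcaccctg
Btc: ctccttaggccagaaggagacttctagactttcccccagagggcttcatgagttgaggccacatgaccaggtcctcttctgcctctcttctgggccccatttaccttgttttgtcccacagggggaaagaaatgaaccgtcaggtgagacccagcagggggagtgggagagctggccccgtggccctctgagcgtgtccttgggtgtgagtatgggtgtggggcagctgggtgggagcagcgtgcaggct
The Areg window held a CRE match from 61 to 54 bases before the start site, a GC box match, and a TATA box match from 31 to 26 bases before it. The Btc window held no match to any of these letters. Among 32851 promoter entries, a CRE match was found in 1.55% of windows of the same length, an AP-1 match in 6.75%, a TATA box match in 12.4%, a GC box match in 32.7%, a TEAD match in 12.6%, and a CCAAT match in 33.8%. A match describes the letters only.

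Culture changed most members in Krt8+/+ AECs, and the ligands and receptors followed several separate courses. On day 1 against day 0, 6 of the 9 rose (Areg, Ereg, Hbegf, Btc, Epgn, and Egfr), with 26.2% of all tested genes higher, and 2 fell (Erbb2 and Erbb3), with 28.5% of all tested genes lower. On day 3, 5 rose against a background of 26.1%, and 2 fell against 27.8%. On day 7, 3 rose (Ereg, Hbegf, and Egfr) against 28.6%, and 3 fell (Tgfa, Erbb2, and Erbb3) against 30.2%. The median log2 fold change of the 9 was 1.71 at day 1, 1.70 at day 3, and -0.53 at day 7, and that of all tested genes was 0, -0.0015, and 0. A call is an adjusted p below 0.05 in edgeR's quasi-likelihood F test over all tested genes. The comparisons with day 0 share the 3 day 0 libraries.

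Krt8–/– AECs gave similar counts on each day. On day 1, 5 members rose (23.7% of all tested genes) and 1 fell (26.9%), and at day 3, 5 rose (25.4%) and 0 fell (26.6%). On day 7, 3 rose (28.6%) and 3 fell (29.9%), the latter being Areg, Erbb2, and Erbb3. The medians were 1.21, 1.40, and -0.28 in log2, against -0.014, -0.015, and 0.0024 for all tested genes. On day 3, Erbb2 and Erbb3 had log2 fold changes of -0.33 (adjusted p = 0.0807) and -0.58 (adjusted p = 0.0624) in Krt8–/– AECs. That the 2 genotypes pass the threshold with different members is not a test of a difference between them, which is given further on.

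Between later days the changes were fewer. From day 1 to day 3 in Krt8+/+ AECs, Erbb2 rose (14.4% of all tested genes higher) and Hbegf and Epgn fell (11.9% lower). In Krt8–/– AECs, Erbb2 rose (13.4%) and Hbegf fell (10.2%). From day 3 to day 7, Egfr rose and Areg, Btc, and Erbb3 fell in both genotypes. These 4 of 9 calls stood against 3.11% higher and 3.47% lower of all tested genes in Krt8+/+ AECs, and 4.4% and 6.15% in Krt8–/– AECs. Several of these calls rested on all 3 replicates, as the account of each gene shows.

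**Figure D1:**
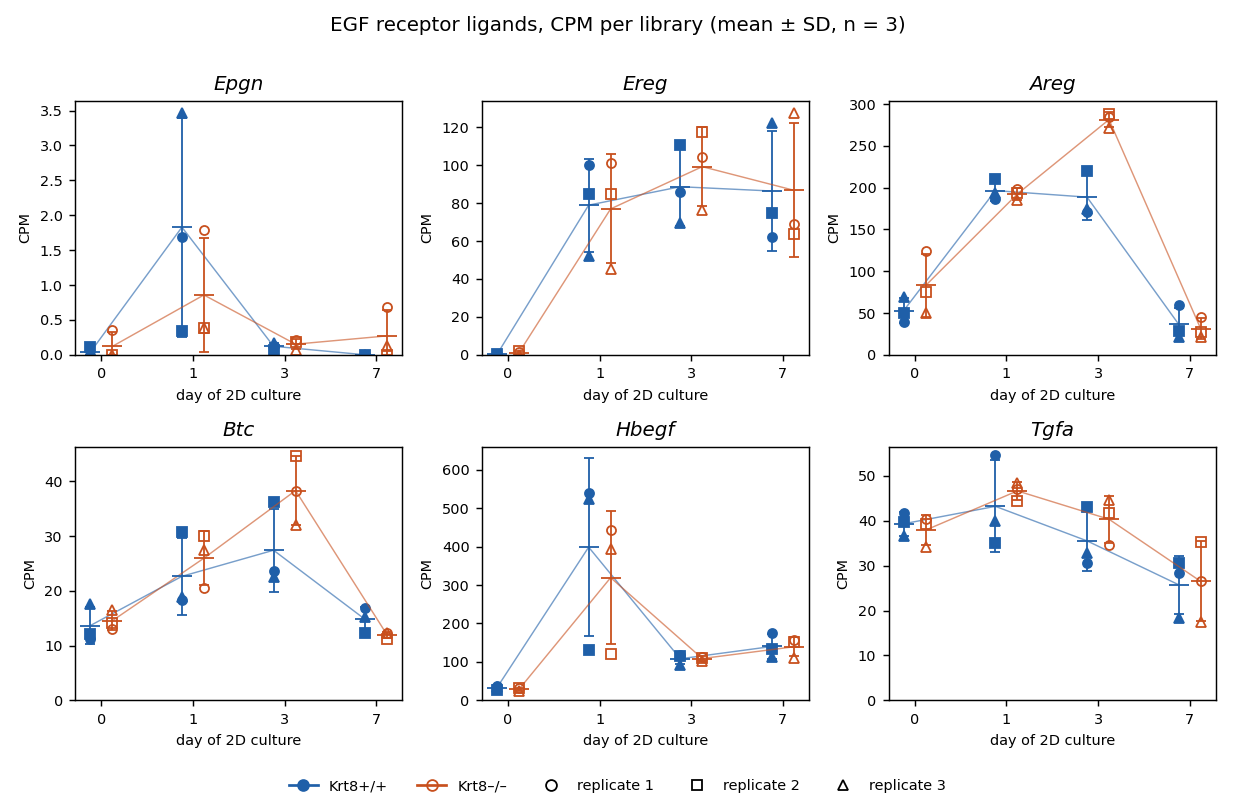
Level of each of the 6 ligands in CPM (vertical axes, each starting at 0) on days 0, 1, 3, and 7 (horizontal axes) for Krt8+/+ (filled) and Krt8–/– (open) AECs, with 1 point per library, symbols for the 3 replicates, and bars for the mean ± SD. Areg and Btc were high on days 1 and 3 and low at day 7, Ereg stayed up from day 1, and Hbegf was highest at day 1 in replicates 1 and 3 but not in replicate 2.

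Areg, which encodes amphiregulin, was the most abundant ligand per length from day 0 to day 3. In Krt8+/+ AECs its level in replicates 1, 2, and 3 was 39.8, 50.3, and 69.0 CPM at day 0, 186, 210, and 193 at day 1, 171, 221, and 175 at day 3, and 59.2, 28.7, and 21.9 at day 7. The day 1 and day 3 libraries were all above those of day 0 and day 7, which overlapped each other. Areg rose 3.72-fold at day 1 (log2 1.89, SE 0.33, adjusted p = 8.1e-05) and was 3.57-fold over day 0 at day 3 (adjusted p = 9.6e-05), each in 3 of 3 replicates. It then fell by 2.37 on the log2 scale from day 3 to day 7 (SE 0.34, adjusted p = 2.2e-04), a call that was lost without replicate 2 (adjusted p = 0.0583).

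On day 7, Areg in Krt8+/+ AECs was -0.53 in log2 against day 0 (95% interval -1.21 to 0.15, adjusted p = 0.171). Replicate 1 decided this, since it was the only replicate with a higher level at day 7 than at day 0. Without it the log2 fold change was -1.24 (adjusted p = 7.4e-04). The 7 leukocyte and macrophage markers, of which none was at 0 in a group, had the same order of replicates at day 7, with sums of 164, 48.7, and 9.21 CPM. Their sums ranged from 14.4 to 50.5 CPM at day 0, 28.8 to 214 at day 1, 20.9 to 145 at day 3, and 9.21 to 164 at day 7. On each of these days the sums fell from replicate 1 to replicate 3. Areg had the reverse order of replicates at day 0 and neither order on days 1 and 3. The part of the marked cells in the level of Areg was not tested. In Krt8–/– AECs the levels were 124, 75.0, and 49.7 CPM at day 0, 198, 194, and 185 at day 1, 285, 288, and 272 at day 3, and 45.6, 26.7, and 21.9 at day 7. There the 4 days did not overlap, with day 3 highest and day 7 lowest. In the Krt8–/– libraries of day 7 the leukocyte and macrophage sums were 88.2, 29.3, and 8.10 CPM, again in the order of Areg. There the 2 orders were also the same on days 0 and 1, but not at day 3. Areg rose 2.32-fold at day 1 (adjusted p = 0.00415, and 0.0655 without replicate 2) and 3.39-fold at day 3 (adjusted p = 1.5e-04), and at day 7 it fell by 1.40 in log2 against day 0 (SE 0.33, adjusted p = 0.0011).

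Btc, which encodes betacellulin, took the same course at a lower level. Krt8+/+ AECs had 11.3, 12.1, and 17.6 CPM at day 0, 18.4, 30.8, and 18.9 at day 1, 23.6, 36.2, and 22.5 at day 3, and 16.8, 12.4, and 15.2 at day 7. Replicate 2 was the highest on days 1 and 3 and the lowest at day 7, and days 0 and 7 overlapped. Btc rose by 0.73 in log2 at day 1 (SE 0.24, adjusted p = 0.0124) and by 1.01 at day 3 (adjusted p = 0.00112), and it fell by 0.89 from day 3 to day 7 (adjusted p = 0.0231). The day 1 call was lost without replicate 1 (adjusted p = 0.0655) and without replicate 2 (log2 0.45, adjusted p = 0.177). The fall from day 3 was lost without replicate 1 (adjusted p = 0.0828), replicate 2 (log2 -0.54, adjusted p = 0.41), or replicate 3 (adjusted p = 0.0804).

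In Krt8–/– AECs the rise and fall of Btc were larger in value. Levels were 13.1, 14.1, and 16.5 CPM at day 0, 20.4, 30.1, and 27.4 at day 1, 38.3, 44.7, and 32.1 at day 3, and 12.2, 11.2, and 12.4 at day 7, with no overlap between days. Btc rose 1.79-fold at day 1 (adjusted p = 0.00543) and 2.64-fold at day 3 (adjusted p = 4.6e-05), and it fell by 1.68 in log2 from day 3 to day 7 (adjusted p = 8.1e-05). Over the 24 libraries the log2 CPM of Areg and Btc had a Pearson r of 0.848, the highest of the 36 pairs of members. Those libraries come in 8 groups, so this r describes how the groups are ordered more than how single libraries vary.

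Ereg, the gene between Epgn and Areg, was close to absent in fresh cells and stayed up from day 1 on. On day 0 it had 4, 4, and 0 counts in Krt8+/+ and 20, 20, and 0 counts in Krt8–/– AECs, so replicate 3 had none in either genotype. In Krt8+/+ AECs it reached 100.1, 84.7, and 52.0 CPM at day 1, 85.7, 111, and 69.4 at day 3, and 62.0, 74.9, and 122 at day 7. Every cultured library was far above day 0, and the 3 culture days overlapped one another. From the summed counts, day 1 was 331-fold over day 0 (95% interval 168 to 768, counting error only), and Ereg passed the test on days 1, 3, and 7 (adjusted p = 1.2e-08, 7.8e-09, and 5.0e-09).

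Krt8–/– AECs showed the same course of Ereg. Its levels were 101, 84.5, and 45.2 CPM at day 1, 104, 117, and 76.3 at day 3, and 68.9, 63.9, and 127 at day 7. The day 1 level was 70.1-fold over day 0 (95% interval 51.4 to 98.4, counting error only, adjusted p = 5.5e-08). Replicate 3 had the lowest Ereg level on days 1 and 3 and the highest at day 7 in both genotypes. From day 3 to day 7 the change was -0.04 in Krt8+/+ (adjusted p = 0.985) and -0.19 in Krt8–/– AECs (adjusted p = 0.851), and the latter passed only without replicate 3 (log2 -0.74, adjusted p = 0.0442). So Areg and Ereg, 46.0 kb apart, rose together at day 1, and by day 7 Areg had fallen from its day 3 level whereas a fall of Ereg was not detected.

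Epgn, which encodes epigen, was rare throughout. Krt8+/+ libraries held 0, 1, and 0 counts at day 0, 23, 4, and 51 at day 1, 2, 1, and 3 at day 3, and 0, 0, and 0 at day 7. The day 1 counts were the highest in each replicate, with replicate 2 the lowest of that day. From 78 against 1 counts, day 1 was 65.8-fold over day 0 (95% interval 11.5 to 2631, counting error only, adjusted p = 0.0041). It was 15.6-fold over day 3 (95% interval 6.84 to 43.7, counting error only, adjusted p = 0.0236). Against day 7, with 0 counts, it was 27.0-fold over a floor of 3 counts for the group. The 95% interval from the counts began at 21.4 there (counting error only). The rise was lost without replicate 3 (adjusted p = 0.076), and the fall to day 3 without replicate 2 (adjusted p = 0.0695) or replicate 3 (adjusted p = 0.188). The fit without replicate 1 gave no value for Epgn, so neither change could be checked without that replicate. Krt8–/– libraries held 5, 0, and 0 counts at day 0, 20, 6, and 5 at day 1, 3, 3, and 1 at day 3, and 12, 0, and 2 at day 7. There day 1 missed the threshold (adjusted p = 0.0825) and passed it with replicate as a block (adjusted p = 0.0432).

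Hbegf, which encodes a heparin-binding ligand and is an early response gene in many cells, peaked at day 1. Its level in Krt8+/+ AECs was 37.7, 26.5, and 35.1 CPM at day 0, 540, 132, and 524 at day 1, 118, 116, and 91.0 at day 3, and 175, 134, and 112 at day 7. All cultured libraries were above day 0. On day 1, replicates 1 and 3 were far above every other day, whereas replicate 2 lay within the day 7 range. Hbegf rose by 3.59 in log2 at day 1 (SE 0.44, adjusted p = 1.2e-06), and was still 3.26-fold over day 0 at day 3 (adjusted p = 0.00163) and 4.23-fold at day 7 (adjusted p = 2.4e-04).

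The Krt8–/– libraries repeated this, replicate by replicate. Hbegf was 31.2, 31.1, and 24.03 CPM at day 0, 443, 121, and 394 at day 1, 113, 111, and 102 at day 3, and 157, 151, and 111 at day 7. It rose 11.1-fold at day 1 (adjusted p = 2.0e-06), and was 3.78-fold over day 0 at day 3 (adjusted p = 6.4e-04) and 4.85-fold at day 7 (adjusted p = 1.0e-04). From day 1 to day 3 it fell by 1.88 in log2 in Krt8+/+ (adjusted p = 0.00209) and by 1.55 in Krt8–/– AECs (adjusted p = 0.00895). Without replicate 1 or replicate 3 these calls were lost (adjusted p = 0.0593 and 0.0961 in Krt8+/+, 0.16 and 0.159 in Krt8–/– AECs), and without replicate 2 the fall in Krt8+/+ AECs was 2.35 in log2 (adjusted p = 7.4e-05).

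Replicate 2 at day 1 also had the lowest AEC2 marker levels. The 6 markers summed to 14787 (Krt8+/+) and 13929 CPM (Krt8–/–) there, against 61803 to 85886 CPM in the other 4 day 1 libraries. The airway markers were highest there, at 15780 CPM in Krt8+/+ AECs (4773 and 7730 in the others) and 11557 CPM in Krt8–/– AECs (8226 and 7404). So were the summed mesothelial markers, at 360 and 464 CPM against 193 to 308 CPM. Msln supplied most of these sums, with day 1 libraries spanning 160 to 332 CPM (Krt8+/+) and 215 to 437 CPM (Krt8–/–). Lrrn4, Upk3b, and Wt1 each stayed at or below 28.4 CPM on that day. The higher sums thus describe mainly Msln, and a larger share of mesothelial cells was not tested. In Krt8+/+ AECs, Erbb2, Erbb3, Tgfa, and Epgn were also lowest in replicate 2, and Areg and Btc highest. In Krt8–/– AECs, Erbb3 and Tgfa were again lowest in replicate 2 and Btc highest. There, however, Erbb2 was highest in replicate 2, Areg was not, and Epgn was level with replicate 3. Whether these levels and that of Hbegf share a cause was not tested.

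**Figure D2:**
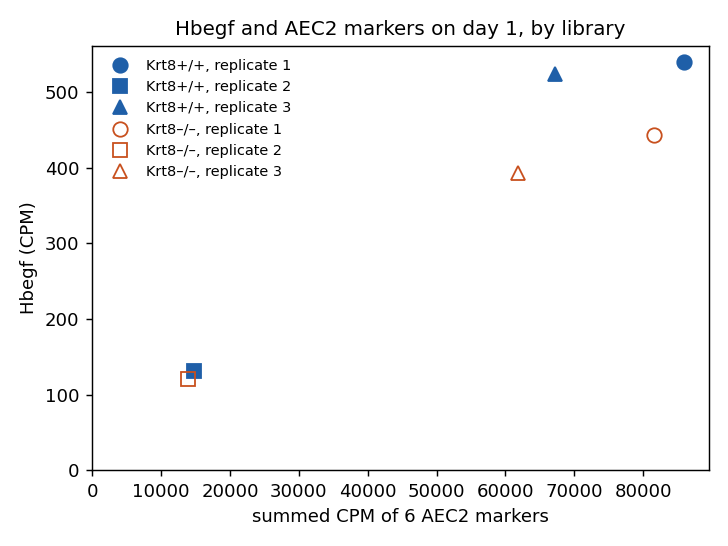
Hbegf in CPM (vertical axis) against the summed CPM of 6 AEC2 markers (horizontal axis) in the 6 day 1 libraries, filled for Krt8+/+ and open for Krt8–/–, with a symbol for each replicate. The libraries of replicate 2, at 132 and 121 CPM of Hbegf, lie far from the other 4, which are at 394 to 540 CPM.

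Tgfa, which encodes TGF-α, changed little. Krt8+/+ AECs had 41.8, 39.6, and 36.5 CPM at day 0, 54.6, 35.0, and 39.9 at day 1, 30.6, 43.1, and 32.8 at day 3, and 28.2, 30.6, and 18.4 at day 7. Days 0, 1, and 3 overlapped, and day 7 was the lowest in replicates 1, 2, and 3. The log2 fold change at day 1 was 0.14 (95% interval -0.33 to 0.60, adjusted p = 0.626), and at day 7 Tgfa fell by 0.61 (SE 0.22, adjusted p = 0.0234). That call was lost without replicate 1 (adjusted p = 0.101) or replicate 3 (adjusted p = 0.108). In Krt8–/– AECs Tgfa ranged from 34.1 to 48.4 CPM on days 0 to 3 and was 26.6, 35.4, and 17.5 CPM at day 7. Its day 7 change was -0.52 (adjusted p = 0.052), which passed with replicate as a block (adjusted p = 0.0326), in DESeq2 (adjusted p = 0.0456), and without replicate 2 (adjusted p = 0.0399).

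Compared per length, as CPM per kb of exon, the ligand mix shifted from mostly Areg to Areg, Hbegf, and Ereg, whose order differed between replicates. On day 0 in Krt8+/+ AECs, Areg was at 43.6 ± 12.2 CPM per kb (SD, n = 3) and made up 73.2% of the sum of the 6 ligand means, followed by Hbegf (11.5%) and Tgfa (10.2%), which overlapped, then Btc (5.07%), and last Ereg and Epgn, which overlapped near 0. On day 1 the order was Areg (58.6%), Hbegf (29.9%), and Ereg (6.93%), each apart from the next. On day 3 Areg held 73.7%, with Hbegf and Ereg overlapping. On day 7 Areg (34.5%), Hbegf (33.2%), and Ereg (23.97%) overlapped in this order. In Krt8–/– AECs Areg held 81.7%, 61.8%, 79.1%, and 31.3% on the 4 days, and at day 7 Hbegf came before it with 34.9%, again overlapping.

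The summed ligand level in the Krt8+/+ libraries was 49.5, 55.8, and 73.6 CPM per kb at day 0, 303, 233, and 292 at day 1, 196, 247, and 190 at day 3, and 108, 77.0, and 76.9 at day 7. Every library of a culture day was above every day 0 library. The Krt8–/– libraries had 119, 77.8, and 54.8 at day 0, 292, 219, and 259 at day 1, 297, 305, and 277 at day 3, and 93.8, 76.5, and 77.3 at day 7, so days 0 and 7 overlapped there. The receptor sum was 41.8 to 49.4 CPM per kb at day 0 and 27.1 to 35.2 at day 7 in Krt8+/+ AECs. These are RNA levels, and in bulk samples more RNA per cell and more cells of a type cannot be told apart.

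**Figure D3:**
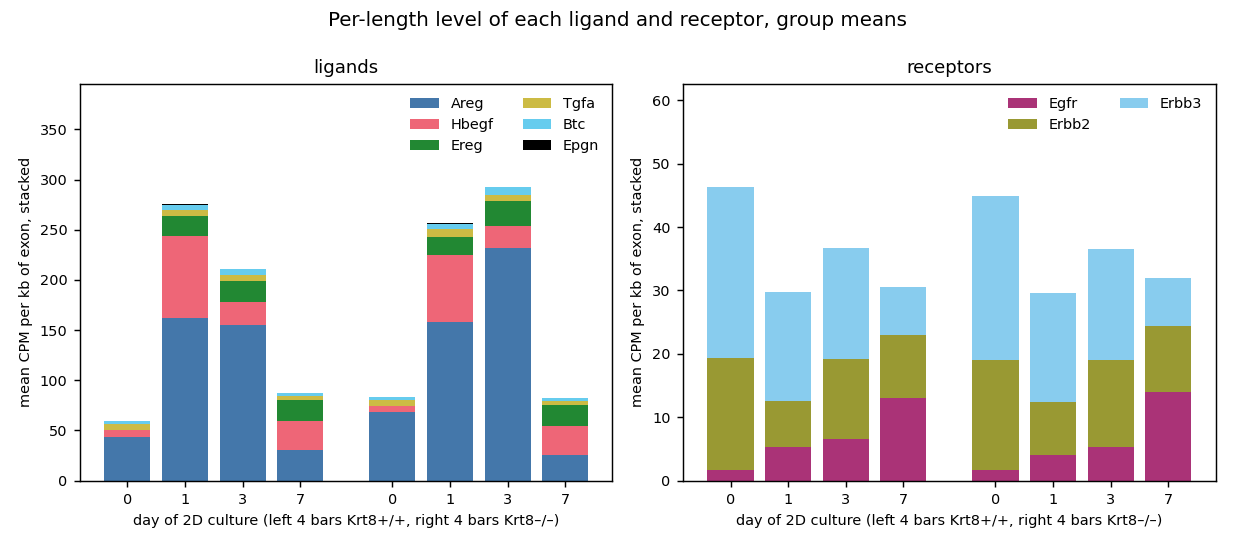
Mean CPM per kb of exon (vertical axes, from 0) of the 6 ligands (left) and the 3 receptors (right), stacked, for days 0, 1, 3, and 7 of Krt8+/+ (first 4 bars) and Krt8–/– AECs (last 4 bars). Areg made up 73.2% of the Krt8+/+ ligand sum at day 0 and 34.5% at day 7, and Egfr went from 3.46% to 42.6% of the receptor sum.

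The receptors changed places. Egfr, which binds all 6 ligands, was the least abundant receptor per length at day 0 and the most abundant at day 7, while Erbb2 and Erbb3 fell. The 250 bases upstream of Egfr (chr11:16751953-16752202, plus strand) and Erbb2 (chr11:98412234-98412483, plus strand), the receptors with opposite courses and with a promoter entry, are shown with the matches to the motifs above in capitals.
Egfr: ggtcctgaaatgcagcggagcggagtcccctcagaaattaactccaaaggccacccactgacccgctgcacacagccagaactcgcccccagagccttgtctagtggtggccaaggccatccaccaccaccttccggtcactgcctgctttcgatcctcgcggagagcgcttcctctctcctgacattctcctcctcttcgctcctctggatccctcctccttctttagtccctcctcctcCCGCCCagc
Erbb2: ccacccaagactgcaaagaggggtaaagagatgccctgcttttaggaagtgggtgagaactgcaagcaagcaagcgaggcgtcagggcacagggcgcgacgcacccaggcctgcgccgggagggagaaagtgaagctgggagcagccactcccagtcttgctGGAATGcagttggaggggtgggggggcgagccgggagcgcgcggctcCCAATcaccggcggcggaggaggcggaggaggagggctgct
The Egfr window held a GC box match from 9 to 4 bases before the start site. The Erbb2 window held a TEAD match from 88 to 83 bases and a CCAAT match from 41 to 37 bases before it. Neither held a CRE, AP-1, or TATA box match, and 60.8% and 66% of their bases were G or C.

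Egfr was higher than in fresh cells on each culture day. Its level in Krt8+/+ AECs was 23.8, 18.8, and 11.8 CPM at day 0, 83.5, 48.3, and 48.3 at day 1, 96.7, 68.5, and 55.8 at day 3, and 133, 190, and 118 at day 7. Day 0 was below and day 7 above all other libraries, and days 1 and 3 overlapped. Egfr was 3.28-fold over day 0 at day 1 (adjusted p = 1.2e-04), 4.02-fold at day 3 (adjusted p = 1.9e-05), and 8.04-fold at day 7 (log2 3.01, SE 0.33, adjusted p = 1.3e-07). From day 1 to day 3 the log2 change was 0.29 (adjusted p = 0.498), and the step from day 3 to day 7 was 2.00-fold (adjusted p = 0.0499). It missed the threshold with DESeq2's size factors (adjusted p = 0.0505) and without replicate 1 (adjusted p = 0.0675), replicate 2 (log2 0.70, adjusted p = 0.508), or replicate 3 (adjusted p = 0.0945).

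In Krt8–/– AECs, Egfr was 23.9, 19.4, and 12.8 CPM at day 0, 51.8, 49.1, and 36.8 at day 1, 57.5, 72.9, and 48.9 at day 3, and 152, 212, and 113 at day 7. The order of days was that of Krt8+/+ AECs, again with only days 1 and 3 overlapping. Egfr rose 2.45-fold at day 1 (adjusted p = 0.0017), 3.19-fold at day 3 (adjusted p = 1.4e-04), and 8.48-fold at day 7 (adjusted p = 9.0e-08). From day 1 to day 3 the log2 change was 0.38 (adjusted p = 0.381), and the step from day 3 to day 7 was 2.66-fold (adjusted p = 0.00394, and 0.0726 without replicate 2). Replicate 3 had the lowest Egfr level in 7 of the 8 groups and was level with replicate 2 in the other, Krt8+/+ AECs at day 1.

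Markers of mesenchymal and mesothelial cells also changed over the culture. In Krt8+/+ AECs, the 8 fibroblast markers summed to 296 to 994 CPM at day 0, 143 to 261 at day 1, 1005 to 1790 at day 3, and 899 to 1911 at day 7, with all 8 detected in each group. Of these, Col1a1 went from a mean of 53.9 CPM at day 0 to 522 at day 7, whereas Dcn went from 211 to 18.5 CPM. The 4 mesothelial markers summed to 66.3 to 205 CPM at day 0 and 988 to 1873 at day 7. Nearly all of the day 7 sum was Msln, which went from a mean of 34.8 CPM at day 0 to 1462 at day 7. The other mesothelial markers were lower at day 7 than at day 0. Upk3b went from 61.6 to 1.40 CPM, Lrrn4 from 29.0 to 5.02, and Wt1 from 2.80 to 0.748. The replicates had the same order for the fibroblast sum as for Egfr on days 0 and 3 in both genotypes. The Krt8+/+ sums in replicate order were 994, 507, and 296 CPM at day 0 and 1790, 1330, and 1005 at day 3. The Krt8–/– sums were 732, 570, and 333 CPM, then 983, 1308, and 632. The orders were not the same on days 1 and 7. Replicate 3 at day 7 had the highest sum in both genotypes (1911 and 3178 CPM) and the lowest Egfr. The part of such cells in the rise of Egfr was not tested.

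Erbb2, the partner receptor without a ligand, was lowest at day 1. Krt8+/+ AECs had 97.2, 91.4, and 87.5 CPM at day 0, 42.9, 27.8, and 41.7 at day 1, 59.8, 76.7, and 61.4 at day 3, and 52.0, 51.4, and 51.2 at day 7. The 4 days did not overlap. Erbb2 fell by 1.295 in log2 at day 1 (SE 0.16, adjusted p = 1.1e-06), rose by 0.81 from day 1 to day 3 (adjusted p = 7.3e-04), and was down by 0.84 at day 7 against day 0 (adjusted p = 1.1e-04). On day 3 it was down by 0.48 against day 0 (adjusted p = 0.0127), which was lost without the filter on low counts (adjusted p = 0.0531) and without replicate 1 (adjusted p = 0.142) or replicate 3 (adjusted p = 0.097).

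The Krt8–/– libraries had 101, 88.5, and 80.9 CPM of Erbb2 at day 0, 45.7, 46.4, and 38.0 at day 1, 71.9, 67.9, and 75.6 at day 3, and 43.7, 62.7, and 55.5 at day 7. Days 1 and 7 overlapped, and day 0 was above all others. Erbb2 fell by 1.06 in log2 at day 1 (adjusted p = 1.3e-05), rose by 0.73 from day 1 to day 3 (adjusted p = 0.0021, and 0.0972 without replicate 3), and was down by 0.74 at day 7 against day 0 (adjusted p = 3.7e-04). From day 3 to day 7 the change was -0.41 (adjusted p = 0.0996, and 0.0473 without replicate 2). Mien1, on the opposite strand, overlaps Erbb2 and was at 34.5 to 99.3 CPM, and whether the counting used strand is not given in the sources used here. The 3 antisense or unclassified genes that overlap Ereg, Tgfa, and Egfr were at most at 0.915 CPM.

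Erbb3, the neuregulin receptor, was the most abundant receptor in fresh cells. In Krt8+/+ AECs it was 172, 173, and 144 CPM at day 0, 124, 59.8, and 128 at day 1, 69.7, 126, and 120 at day 3, and 44.4, 51.3, and 41.2 at day 7. Day 0 was above and day 7 below all other libraries. Erbb3 fell by 1.84 in log2 at day 7 against day 0 (SE 0.26, adjusted p = 4.7e-06) and by 1.21 from day 3 to day 7 (adjusted p = 0.00558, and 0.107 without replicate 3). On day 1 the fall was 0.65 (adjusted p = 0.0352), which was lost without replicate 1 (adjusted p = 0.0805) or replicate 2 (log2 -0.25, adjusted p = 0.444). On day 3 it was 0.63 (adjusted p = 0.0413), which was lost without replicate 1 (log2 -0.36, adjusted p = 0.406).

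In Krt8–/– AECs, Erbb3 was 173, 168, and 129 CPM at day 0, 110, 82.1, and 119 at day 1, 99.6, 98.04, and 117 at day 3, and 48.3, 55.6, and 32.5 at day 7. It fell by 1.78 in log2 at day 7 (adjusted p = 6.6e-06) and by 1.20 from day 3 to day 7 (adjusted p = 0.00379, and 0.128 without replicate 3). Per length, the Krt8+/+ receptors were ordered Erbb3 (27.1 ± 2.69 CPM per kb), Erbb2 (17.7 ± 0.936), and Egfr (1.61 ± 0.532) at day 0, and Egfr (13.0 ± 3.36), Erbb2 (9.89 ± 0.0768), and Erbb3 (7.59 ± 0.858) at day 7 (SD, n = 3 each). No neighbors in these orders overlapped. In Krt8–/– AECs the day 7 order was the same, and neighbors overlapped.

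**Figure D4:**
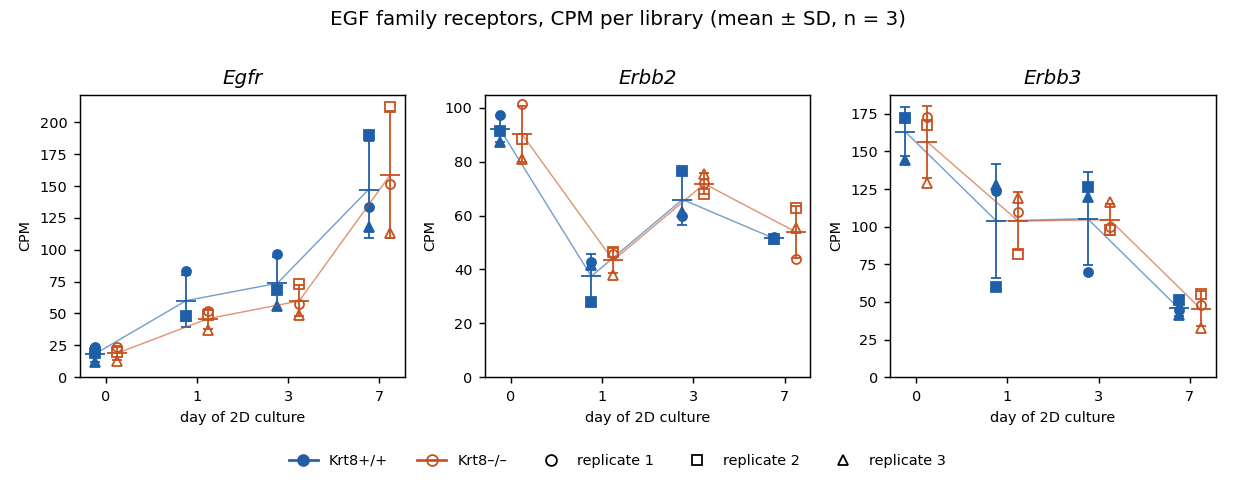
Level of each of the 3 receptors in CPM (vertical axes, from 0) on days 0, 1, 3, and 7 for Krt8+/+ (filled) and Krt8–/– (open) AECs, with 1 point per library, symbols for the replicates, and bars for the mean ± SD. Egfr was 18.2 CPM on average at day 0 and 147 at day 7 in Krt8+/+ AECs, while Erbb3 went from 163 to 45.7.

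Loss of Krt8 did not change any of the 9 genes past the threshold on any day. Called members were 0 of 9 at day 0 (0.0277% of all tested genes called), day 1 (0.0166%), day 3 (0.0166%), and day 7 (0.0166%), over days 1 to 7 weighted as the area of a trapezoid (0.0277%), and in the test of whether the genotype difference varied with day (0.00554%). DESeq2 and the fit with replicate as a block also called 0 of 9 in each of these 6 tests. With edgeR, an unadjusted p below 0.05 was reached by 1 member each on days 0, 3, and 7 and by 0 in the other 3 tests. With DESeq2 it was reached by 1 on days 0 and 7 and by 1 in the test across days.

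Over days 1 to 7 the log2 difference of Krt8–/– from Krt8+/+ AECs was 0.12 for Erbb2 (95% interval -0.084 to 0.32), -0.0068 for Erbb3 (-0.34 to 0.32), and -0.18 for Egfr (-0.57 to 0.21). It was 0.12 for Tgfa (-0.16 to 0.41), 0.17 for Btc (-0.13 to 0.47), 0.21 for Areg (-0.21 to 0.63), -0.052 for Hbegf (-0.57 to 0.47), and 0.078 for Ereg (-0.47 to 0.63). For Epgn it was 1.63 (-0.28 to 3.54), on few counts. The adjusted p was 1 for each.

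**Figure D5:**
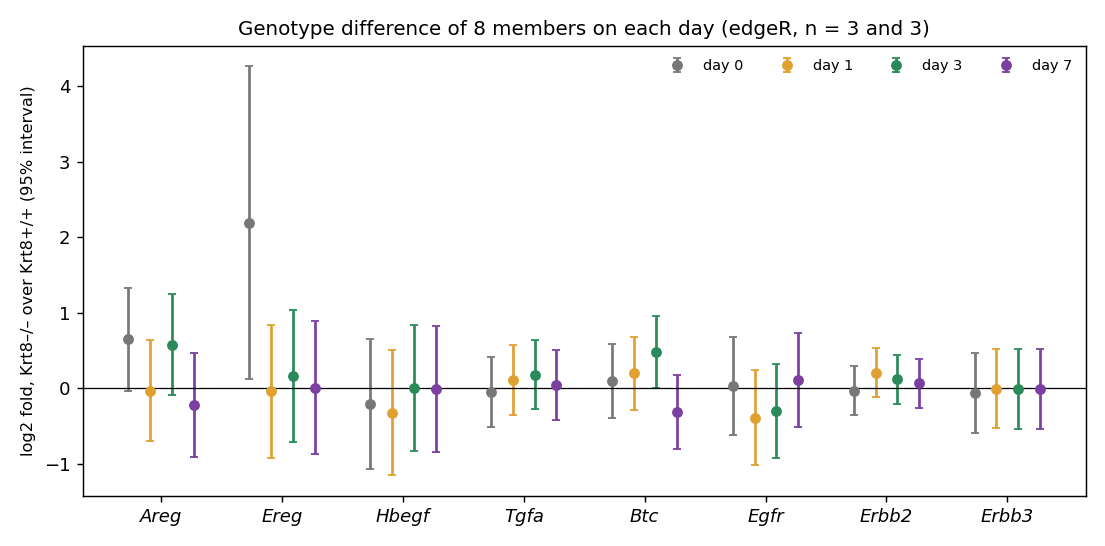
Log2 fold difference of Krt8–/– from Krt8+/+ AECs (vertical axis) for 8 of the 9 members (horizontal axis) on days 0, 1, 3, and 7, as points with 95% intervals from the edgeR fit (3 libraries per genotype). Intervals of Ereg at day 0 and Btc at day 3 lie just above 0, and Epgn is not drawn because of its few counts.

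Of the 9, 3 members reached an unadjusted p below 0.05 on 1 day each. Ereg at day 0 had 40 counts in Krt8–/– against 8 in Krt8+/+ libraries, a ratio of 4.63 (95% interval 2.14 to 11.4, counting error only), from replicates 1 and 2 alone (unadjusted p = 0.0385 and adjusted p = 1 with edgeR, adjusted p = 0.578 with DESeq2). The airway marker sum also differed between the genotypes at day 0. It was 4490, 10086, and 5289 CPM in replicates 1, 2, and 3 of Krt8+/+ and 12279, 12201, and 17351 CPM in those of Krt8–/– AECs. Its part in the Ereg counts was not tested. Btc at day 3 was 1.40-fold higher in Krt8–/– AECs, in 3 of 3 replicates (log2 0.48, 95% interval 0.0066 to 0.96, unadjusted p = 0.0472, adjusted p = 1). Epgn at day 7 had 14 against 0 counts, with 12 of the 14 in replicate 1 (unadjusted p = 0.0173, adjusted p = 1). This was 4.24-fold over the floor of 3 counts, and the 95% interval from the counts began at 3.02 (counting error only). Replicate 1 is the one in which the genotypes differed in the genes that mark sex.

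Areg at day 3 was singled out after its values were seen. It was the 1 case, among the 36 pairs of a member and a day, in which the libraries of the genotypes did not overlap, with Krt8–/– AECs at 272 to 288 CPM and Krt8+/+ AECs at 171 to 221 CPM. Among all tested genes, 6.88% did not overlap at day 0, 5.79% at day 1, 11% at day 3, and 5.54% at day 7. The log2 difference was 0.58 (95% interval -0.091 to 1.25, unadjusted p = 0.0869, adjusted p = 1), and it was 0.50 to 0.67 when 1 replicate was left out. On day 0 the Areg difference of 0.65 (adjusted p = 1) came from replicate 1, since it was 0.063 without it. In that replicate the genotypes also differed in the genes that mark sex, and the part of sex was not tested.

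The rest of the pathway was followed through lists of genes. Of 6 other members of the ligand and receptor family, 3 could be tested, because Nrg2 (98 counts in 24 libraries), Nrg3 (0), and Erbb4 (30) were too rare. Nrg1, a neuregulin that binds ErbB3 and ErbB4, rose from a mean of 3.81 CPM at day 0 to 57.3 at day 1 and 116 at day 7 in Krt8+/+ AECs (log2 3.83 and 4.85, adjusted p = 1.8e-07 and 6.6e-09). So the RNA of an ErbB3 ligand rose while that of ErbB3 fell. Egf, the founding ligand, was at 0.130 CPM at day 0 and 1.299 at day 7 (adjusted p = 0.0221, and up to 0.107 under the alternatives), and Nrg4 passed on neither day.

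Of 7 genes for ligand release, 1 rose and 3 fell at day 1, and 5 rose and 1 fell at day 7 in Krt8+/+ AECs (all tested genes: 26.2% higher and 28.5% lower, then 28.6% and 30.2%). Adam17, the main sheddase of Areg, Ereg, Tgfa, and Hbegf precursors, fell from 119 CPM at day 0 to 65.7 at day 1 and 73.5 at day 7 (log2 -0.85 and -0.69, adjusted p = 1.4e-04 and 7.8e-04). Rhbdf2, which encodes the ADAM17 partner iRhom2, fell from 84.9 to 46.4 CPM at day 1 (adjusted p = 3.0e-04). Adam12 went from 0.143 CPM at day 0 to 24.3 at day 1 and 112 at day 7 (adjusted p = 1.1e-09 and 1.3e-11), and Adam9 rose 3.86-fold by day 7 (adjusted p = 4.8e-08). The median log2 fold change of the 7 was -0.38 at day 1 and 0.49 at day 7.

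Of 24 genes of the signal relay, from adaptor proteins to kinases, 3 rose and 12 fell at day 1, and 5 rose and 12 fell at day 7. Of all tested genes, 26.2% and then 28.6% were higher, and 28.5% and then 30.2% were lower. Stat3 fell from 444 CPM to 151 at day 1 and 129 at day 7 (adjusted p = 1.4e-06 and 1.4e-07). Plcg1, which encodes phospholipase C-γ1, fell from 148 to 27.5 and 44.6 CPM (adjusted p = 4.1e-06 and 1.0e-04). Pik3r1, a regulatory PI3K subunit, fell by 1.60 in log2 at day 1 (adjusted p = 2.8e-06), and Pik3cb, a catalytic one, rose 4.09-fold by day 7 (adjusted p = 3.0e-09). The median of the 24 was -0.37 at day 1 and -0.24 at day 7.

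Of 19 feedback inhibitors, 4 rose and 8 fell at day 1, and 5 rose and 4 fell at day 7, with 26.2% and 28.6% of all tested genes higher and 28.5% and 30.2% lower on these days. The Sprouty genes Spry1 and Spry2, which dampen RAS-ERK signaling, fell at day 1 by 3.69 and 2.57 in log2 (adjusted p = 7.4e-10 and 3.2e-07), and they were down by 3.94 and 2.79 at day 7 (adjusted p = 1.7e-10 and 6.8e-08). Spry1 went from 484 CPM at day 0 to 37.4 at day 1. Dusp5, a nuclear ERK phosphatase, rose 6.46-fold at day 1 and 9.58-fold at day 7 (adjusted p = 6.9e-08 and 3.7e-09). The median of the 19 was -0.48 at day 1 and 0.22 at day 7.

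Of 9 genes that ERK signaling is known to induce, 5 rose and 3 fell on both days, against 26.2% and 28.6% of all tested genes higher and 28.5% and 30.2% lower. Fosl1, an AP-1 subunit, went from 0.201 CPM at day 0 to 324 at day 1 and 43.4 at day 7 (adjusted p = 4.7e-10 and 1.4e-08). Myc rose 27.2-fold at day 1 (adjusted p = 9.8e-13). Etv4 and Etv5, ETS factors downstream of ERK and FGF signals, moved in opposite directions. Etv4 went from 0.0934 to 16.6 CPM by day 7 (adjusted p = 2.4e-09), and Etv5 fell from 1809 to 27.7 CPM (adjusted p = 2.2e-07). The median of the 9 was 0.41 at day 1 and 0.58 at day 7. Between genotypes over days 1 to 7, none of the genes tested in these 5 lists was called by edgeR, and an unadjusted p below 0.05 was reached by 1 gene each of the signal relay, the feedback inhibitors, and the ERK response genes.

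For each member, the genes whose log2 CPM followed it most closely were sought among 15293 genes with an average of at least 1 CPM, by Pearson r over the 24 libraries. Nearest to Areg were Lmo7 (0.906), Ahr (0.900), and Trex2 (0.896), and among those nearest to Btc were Anxa10 (0.884) and Sectm1b (0.865). Ereg was followed by Trim47 (0.983), Dctd (0.979), and Polr3d (0.978), and Hbegf by Klf6 (0.981), Hspa9 (0.968), and Ier5 (0.968). Tgfa was followed by Ezr (0.915), Scamp2 (0.894), and Sowahb (0.891), and the rare Epgn by Pou2f2 (0.860), Gm8818 (0.841), and Gzmm (0.832). Egfr was nearest to Slc2a1 (0.961), Pmaip1 (0.960), and Plpp1 (0.959), Erbb2 to Lnx2 (0.952), Ids (0.948), and Aco1 (0.948), and Erbb3 to Fam102a (0.967), Myo5c (0.945), and 2010300C02Rik (0.944). The libraries share days and replicates, so such values describe a common course over culture.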

How the data were processed

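The 24 libraries all entered the analysis. The deposited table gives unnormalized counts per gene, in whole numbers. The submitters' processing notes name cutadapt 2.3, STAR 2.7.8a, RSEM 1.3.3, and GRCm38 without giving their roles, and whether the counts are rounded RSEM estimates is not stated. Per the file headers, 5 rows stand for reporter genes, which held 0 counts. Symbols were matched to 55154 of 55421 identifiers. Analyses used R 4.3.3 and edgeR 4.0.16 (filterByExpr with min.count 10 and min.total.count 15, TMM, 1 quasi-likelihood model of 8 groups with 16 residual degrees of freedom, Benjamini-Hochberg over 18046 genes, threshold 0.05). P values measure the spread between replicates. Ratios of summed counts have exact binomial 95% intervals for counting error only, and the floor was 3 counts. Per-length levels divide CPM by the union of GENCODE M21 exons. Correlations took log2 CPM with 2 as the prior count, over genes averaging at least 1 CPM. The procedure was tested on simulated data.

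The members, lists, motifs, and tests were chosen with earlier results of these data known. Named were the 9 members, for each list the 3 genes with the largest change past the threshold on days 1 and 7 in Krt8+/+ AECs that had 1 direction in 3 of 3 replicates, the 3 genes most like each member, and members with an unadjusted p below 0.05 between genotypes. Of these, 1 gene is not reported here. Days 1, 3, and 7 were weighted 0.167, 0.5, and 0.333 over days 1 to 7.

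The replicate numbers pair libraries across genotypes and days, since the labels give each number 1 shared batch. Across genes, same-numbered libraries deviated from their groups with correlations between -0.035 and 0.548 (31 of 42 pairs over 0.1). Alternatives were DESeq2 1.42.0, its size factors, no filter, replicate as a block, equal weights of days, and each replicate left out. No library pair was identical, and none agreed within sampling noise (chi-square per gene at least 9.44).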

Additional observations from a re-analysis of the deposited data

Results flagged for a closer look

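The change of Btc from day 3 to day 7 differed in size between genotypes in each replicate. In each of the 3 replicates, Btc was higher in Krt8–/– than in Krt8+/+ AECs on day 3 and lower on day 7. The log2 change in Krt8–/– minus that in Krt8+/+ AECs was -0.792 (unadjusted p = 0.0252, adjusted p = 1 over all tested genes with edgeR). On day 3 the log2 difference between genotypes was 0.48, and on day 7 it was -0.31, each with an adjusted p of 1. The difference thus failed the correction over all genes, and its cause was not tested.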

How the results depend on the processing

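The number of members called stayed within 1.5 times the main count under DESeq2, its size factors, no filter, and the fit with replicate as a block, in each comparison. Leaving out 1 replicate moved the count in Krt8+/+ AECs from 8 to as few as 5 on day 1 against day 0 (without replicate 1), from 3 to 1 for day 3 against day 1, and from 4 to between 1 and 2 for day 7 against day 3. In Krt8–/– AECs it moved from 2 to between 0 and 1 for day 3 against day 1. The cause was not tested, though fewer libraries enter these fits. The pairing of libraries by replicate entered as a block. With it, Epgn on day 1 and Tgfa on day 7 passed in Krt8–/– AECs (adjusted p = 0.0432 and 0.0326), and it changed no other call.

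Among single members with a value, 9, 8, and 11 calls were lost without replicates 1, 2, and 3. Epgn had no value without replicate 1, so its calls in Krt8+/+ AECs are not among those 9. Directions turned only for changes that were not called. The log2 change of Erbb3 from day 1 to day 3 became -0.024 in Krt8+/+ and -0.029 in Krt8–/– AECs with DESeq2 and with its size factors. It ranged from -0.41 to 0.39 and from -0.11 to 0.094 with 1 replicate left out. Ereg from day 3 to day 7 in Krt8+/+ AECs became 0.017 with the block. The other values are ranges with 1 replicate left out. Ereg from day 3 to day 7 had -0.52 to 0.23 in Krt8+/+ and -0.74 to 0.11 in Krt8–/– AECs. In Krt8+/+ AECs, Tgfa had -0.024 to 0.35 on day 1 against day 0 and -0.57 to 0.018 on day 3 against day 1, and on day 7 against day 0 Btc had -0.11 to 0.32 and Epgn -2.50 to 0. In Krt8–/– AECs on day 3 against day 0, Tgfa had -0.062 to 0.24 and Epgn -0.30 to -0.031, and no setting without replicate 1 gave Epgn a value. The genotype difference of Erbb3 over days 1 to 7 had -0.11 to 0.055. The cause was not tested.

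Each group held 3 libraries. Epgn and day 0 Ereg are limited by few counts.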
